A study of Mus musculus with 2 samples.

Results

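The clustered protocadherin genes lie side by side on mouse chromosome 18, and the regions described here are those of a SAHA-over-DMSO ChIP-seq list that overlap the window chr18:37050000-38030000 (build mm9), which holds the alpha, beta and gamma arrays in this order. 7 of the 61400 listed regions overlap it, and 2655 of the listed regions lie on chromosome 18. The study used MC3T3 sc4, an established mouse calvarial osteoblast line, grown in osteogenic medium with ascorbic acid and beta glycerol phosphate. On day 4 the cells received 20 µM SAHA (suberoylanilide hydroxamic acid, an inhibitor of histone deacetylases) or its solvent DMSO for 2 hours, and exposure went on through a collagenase digest of 40 min. Each condition was 1 ChIP-seq library with an antibody that the labels give as histone H4, and the design text calls the target acetylated H4. The list was made with SAHA as the ChIP library and DMSO as the background, so it shows where SAHA carried more tags. With 1 library per condition no difference below has a replicate check, and all intervals cover counting error only.

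Clustered protocadherins are cadherin-like adhesion proteins of the cell surface, known above all from neurons, where different combinations mark single cells and govern contacts between their branches. In the alpha and gamma arrays a row of variable first exons, each with its own promoter, is spliced to a shared set of constant exons at the end of the array, while each beta gene is a single exon. A cell uses few of these promoters, and the choice is known to involve DNA methylation, the factor CTCF with cohesin, and distant enhancers that carry active histone marks. Histone H4 acetylation is a mark of open chromatin, and histone deacetylases remove it.

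RefSeq names 14 genes in the alpha array (Pcdha1 to Pcdhac2), 22 in the beta array (Pcdhb1 to Pcdhb22) and 22 in the gamma array (Pcdhga1 to Pcdhgc5), 58 in all. In gene order Zmat2 precedes the arrays, Slc25a2, a carrier of the mitochondrial membrane, and Taf7, a subunit of the general transcription factor TFIID, stand between beta and gamma, and Diaph1, an actin-nucleating formin, and Hdac3, a class I histone deacetylase, follow gamma. This table belongs to another build (GRCm38), so it was used for names and order only. No region below is assigned to an exon, intron or promoter, and no sequence is shown.

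The SAHA-high regions of the window were few and lay close together. All 7 fell between 37309461 and 37378036, a span of 68.6 kb that makes up 7.00% of the window. No listed region lay in the opening 259.5 kb (26.5% of the window), and none lay in the closing 652.0 kb (66.5%). With the window cut into 10 bins of 98 kb and regions placed by midpoint, the bin from 196 to 294 kb held 3 regions, the bin from 294 to 392 kb held 4, and each of the others held 0. Covered bases came to 8281, or 0.845% of the window, and 12.1% of the span between the outermost regions.

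**Figure D1:**
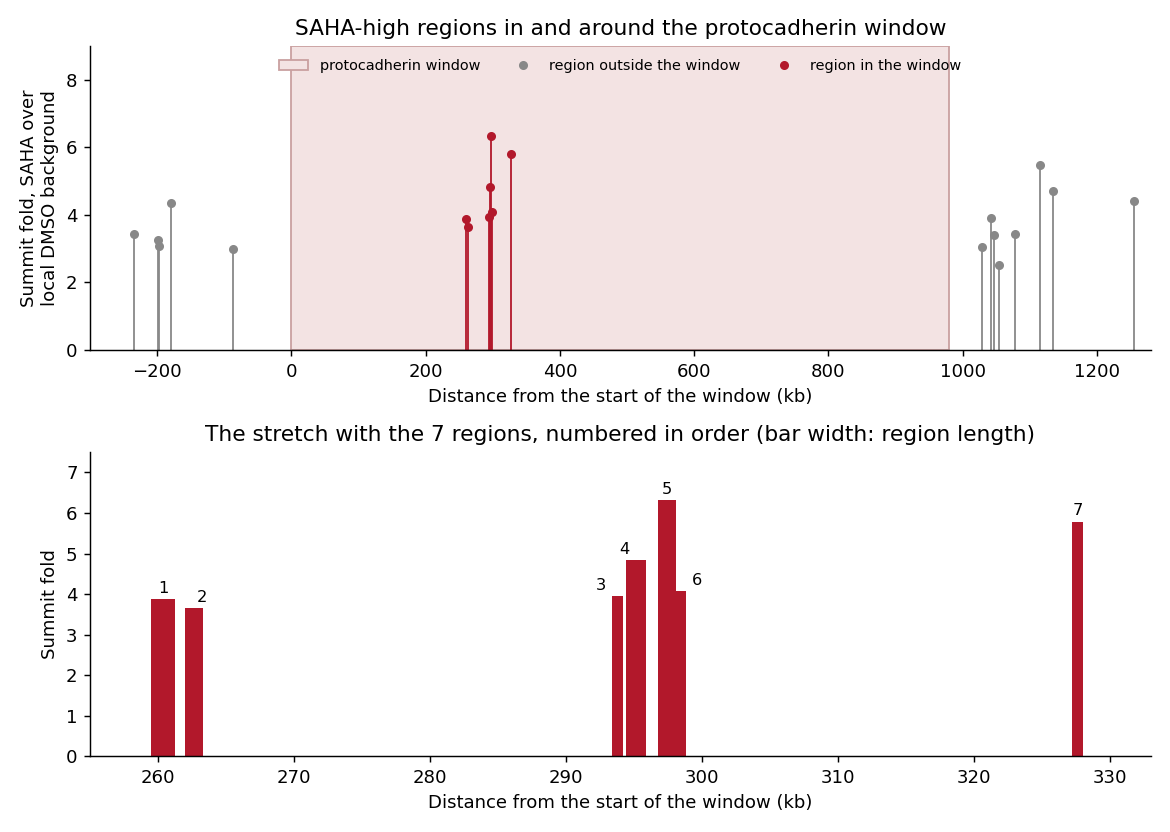
Summit fold of each listed SAHA-high region (y axis, SAHA over the local DMSO background, no unit) against distance from the start of the protocadherin window in kb (x axis). The upper panel shows 300 kb on either side of the window and the lower panel the stretch with the 7 regions at their true lengths. The regions in the window sit between 259.5 and 328.0 kb, and the rest of the window is empty.

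The 7 regions formed 3 groups when neighbours up to 1 kb apart were joined. The opening pair, 37309461 to 37313330, spanned 3.87 kb and held 470 SAHA tags. After a gap of 30.0 kb came 4 regions within 5.48 kb, 37343355 to 37348836, with 649 SAHA tags over 4327 covered bases. Gaps inside this group of 4 were 208, 923 and 24 bp. A lone region of 790 bp followed 28.4 kb further on, at 37377247 to 37378036.

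Long empty stretches flanked these groups on both sides. From the region before the window, which ended at 36963746, to the opening member there were 345.7 kb without a listed region, and 34 of the 2654 gaps on chromosome 18 were longer (1.28%). From the last member to the next region, at 38078871, there were 700.8 kb, and 18 gaps on the chromosome were longer (0.678%). In the whole list 577 of 61379 gaps were longer than 700.8 kb (0.940%). These shares count gaps and not bases, and most gaps were short, with 12.3% of those on the chromosome above 30.0 kb. Empty stretches of this size were not rare by length. Of the 80 other windows of 980 kb on the chromosome, described below, 18 held no region. With an average background, a stretch of 1 kb needed 104 SAHA tags, 1.57 times the genome average of 66.1, to reach the score cutoff of 50, and one of 500 bp needed 60 tags, 1.81 times the average. Smaller differences in the empty stretches were not detectable at this depth, and DMSO-high regions were not analysed here.

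Region 5, at chr18:37346799-37348097 in the group of 4, had the highest summit fold of the window. Its 1299 bp held 229 SAHA tags (95% Poisson interval 200.3 to 260.7), or 176.3 per kb. The fold, which the authors' caller computed as the height of the SAHA signal at the summit over the local DMSO background, was 6.33, above that of 94.7% of all listed regions. Its score, 10 times the −log10 of the caller's Poisson p-value, was 371.67. The DMSO level behind that score equalled the genome average, 85.9 tags at SAHA depth. Since the caller is known to take the highest of its backgrounds, the region itself held at most 52.9 DMSO tags before scaling, and its SAHA tags were at least 2.67 times the DMSO level (interval 2.33 to 3.03).

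Region 7, the lone one at chr18:37377247-37378036, was shorter but as dense. It held 140 SAHA tags (interval 117.8 to 165.2) in 790 bp, or 177.2 per kb, with a fold of 5.79 and a score of 235.23. Its DMSO level was also the genome average, at most 32.2 DMSO tags before scaling. Its SAHA tags were at least 2.68 times that level (interval 2.25 to 3.16). Of all listed regions with a recovered level, 96.9% had a lower ratio than region 7 and 96.7% a lower ratio than region 5, and the 2 ratios cannot be told apart by their intervals.

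The other 3 regions of the group of 4 had lower folds. Region 4, at chr18:37344399-37345875, held 217 SAHA tags (interval 189.1 to 247.9) in 1477 bp, with a fold of 4.83, a score of 250.62 and a ratio of at least 2.22 to a DMSO level at the genome average. Region 6, at chr18:37348122-37348836, began 24 bp after region 5 and was the shortest of the 7, with the fewest tags and the lowest score. It held 89 SAHA tags (interval 71.5 to 109.5) in 715 bp, with a fold of 4.07, a score of 76.68 and a ratio of at least 1.88, again to the genome average. Region 3, at chr18:37343355-37344190, held 114 SAHA tags (interval 94.0 to 136.9) in 836 bp, with a fold of 3.95 and a score of 107.06. Its DMSO level matched none of the caller's backgrounds, so its ratio of 1.98 is approximate. If the caller tested 113 tags, 1 fewer than listed, the level equals 42 DMSO tags within 1 kb and the ratio becomes 1.98 as well.

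The opening pair had the lowest folds of the window. Region 1, at chr18:37309461-37311272, was the longest of the 7 and held the most tags, 316 (interval 282.1 to 352.8) in 1812 bp. Its fold was 3.88 and its score 291.23. Its DMSO level was the highest of the 7, at 1.30 times the genome average, and matched 53 DMSO tags within 1 kb (interval 39.7 to 69.3). The ratio was at least 2.03, and its interval of 1.81 to 2.26 counts the error of the SAHA tags only. Its summit lay 429 bp from its start, 23.7% of its length. Region 2, at chr18:37311979-37313330, followed 706 bp later with 154 SAHA tags (interval 130.6 to 180.3) in 1352 bp, a fold of 3.65 and a score of 101.71. At 113.9 tags per kb it was thin, since 1.66% of all listed regions had a lower density. Its ratio of 1.75 is approximate, and with 156 tags, 2 more than listed, its level equals the genome average and the ratio is 1.74.

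**Figure D2:**
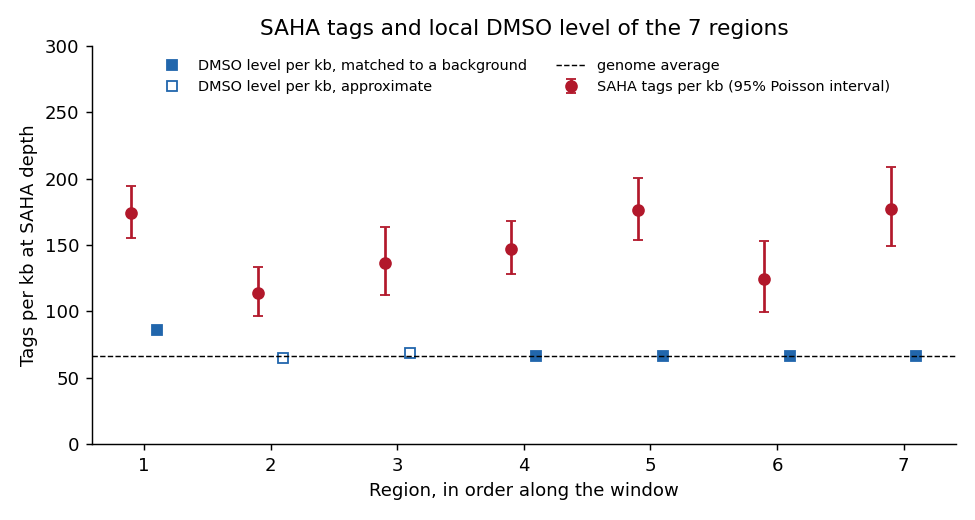
SAHA tags per kb (circles, with 95% Poisson intervals) and the local DMSO level per kb at SAHA depth (squares) for the 7 regions in order along the window. Filled squares are levels that matched a background of the caller and are upper limits of the DMSO tags; open squares are approximate. The dashed line is the genome average of 66.1 tags per kb. Every SAHA value lies above its DMSO level, which a region must do to be listed.

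Along the window, SAHA density did not follow the order of the regions. Regions 7, 5 and 1, 1 from each group, stood together at 177.2, 176.3 and 174.4 tags per kb. Next came region 4 at 146.9, region 3 at 136.4, region 6 at 124.5 and region 2 at 113.9 tags per kb. Each neighbour in this order overlapped the next within its interval. The interval of region 2 (96.6 to 133.4) lay below those of regions 1, 5 and 7, which began at 149.1 or higher.

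Against the rest of the list the 7 regions were of ordinary length and fold. Their median length was 1299 bp, against 1199 bp for the other 2648 regions of chromosome 18 and 1337 bp for the whole list. None exceeded 5 kb, a length passed by only 4.65% of those other regions and 7.85% of the list. The longest member was 1812 bp. The median fold was 4.07 (range 3.65 to 6.33), against 3.97 on the rest of the chromosome and 3.93 in the whole list. A fold of at least 5 was reached by 2 of 7 members (28.6%, exact binomial interval 3.67 to 71.0%), and by 19.0% of all listed regions. 6 of 7 had a score of at least 100, against 62.5% of the list. The interval of the latter share was 42.1 to 99.6%, and both intervals include the background. The FDR in the list ran from 63.81% to 78.68% over the members. By the definition known for this caller, this percent counts regions called at or above the same score with SAHA and DMSO exchanged. The count is per 100 listed regions at or above that score.

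The level that the caller took as background stood at about the genome average in most members. For regions 4, 5, 6 and 7 it was that average itself, so their own DMSO tags may have been fewer, by an unknown amount. In 5 of 7 (71.4%, exact binomial interval 29.0 to 96.3%) the level did not exceed the genome average by more than 0.1%. The same held for 29.2% of the other regions of chromosome 18 and 21.8% of the whole list. These shares describe the caller's background and not DMSO tags counted in the regions. The interval includes the share on the rest of the chromosome but not that of the whole list. It treats the 7 regions as independent, although they lie in close groups. Region 2, whose level is approximate, is 1 of the 5. The highest level among the 7, that of region 1, was 1.30 times the average and above the median of the other regions on the chromosome, 1.19 times. Taken over this level, the SAHA tags of the members had a median ratio of 2.03 (range 1.75 to 2.68), against 1.85 on the rest of the chromosome (quartiles 1.65 and 2.10). A low level raises this ratio by construction. Among regions with a level at or below the average, the 5 members had a median ratio of 2.22 and a median length of 1299 bp, and the 771 others on the chromosome had 2.02 (quartiles 1.86 and 2.27) and 853 bp. In that comparison 53 of the 771 had a higher ratio than region 5 and 51 a higher one than region 7, while 721 had a higher ratio than region 2.

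**Figure D3:**
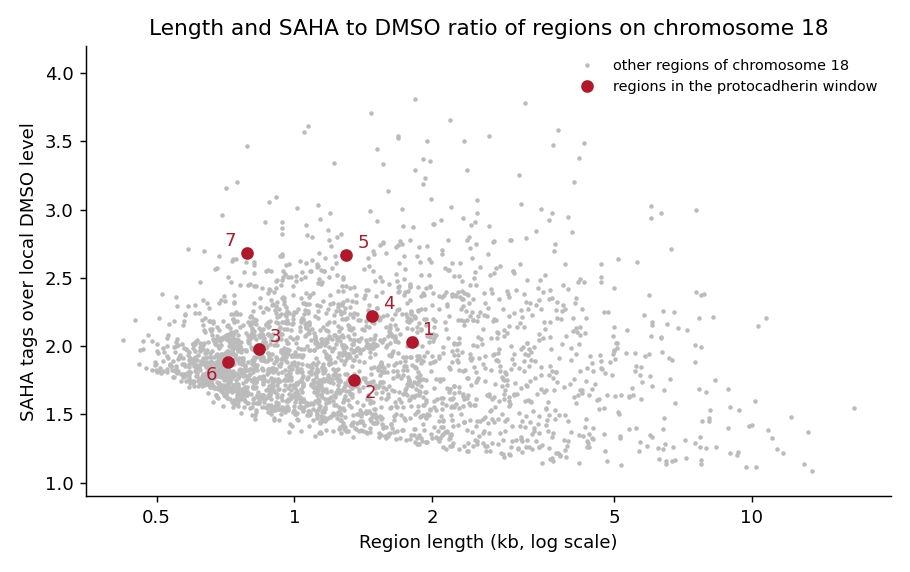
SAHA tags of each region divided by its local DMSO level (y axis) against region length in kb (x axis, log scale) for regions of chromosome 18, with the 7 protocadherin regions numbered in order. Regions 5 and 7 stand near 2.7, and the other 5 lie between 1.75 and 2.22. All 7 lie within the range of the other regions, 1.08 to 3.81.

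The window was sparse for its chromosome, though not among the emptiest stretches. It held 7.14 regions per Mb (95% Poisson interval 2.87 to 14.7), against 33.2 per Mb on the rest of chromosome 18, or 21.5% of that density. This interval treats the regions as independent, although they lay in close groups, and it does not measure the spread between windows. The window's coverage of 0.845% compared with 5.90% on the rest of the chromosome. Chromosome 18 was divided into 81 windows of 980 kb laid edge to edge from this one. Of the 80 others, 57 held more regions and 23 held fewer, and 18 of those 23 held none. The other 5 held 1, 1, 1, 2 and 5 regions. The median of the 80 was 21.5 regions (quartiles 1 and 47.75), and the fullest held 216. By coverage 58 windows had more and 22 less. The windows just before and just after held 23 and 16 regions and were covered to 4.87% and 2.80%, more than the protocadherin window on both measures.

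**Figure D4:**
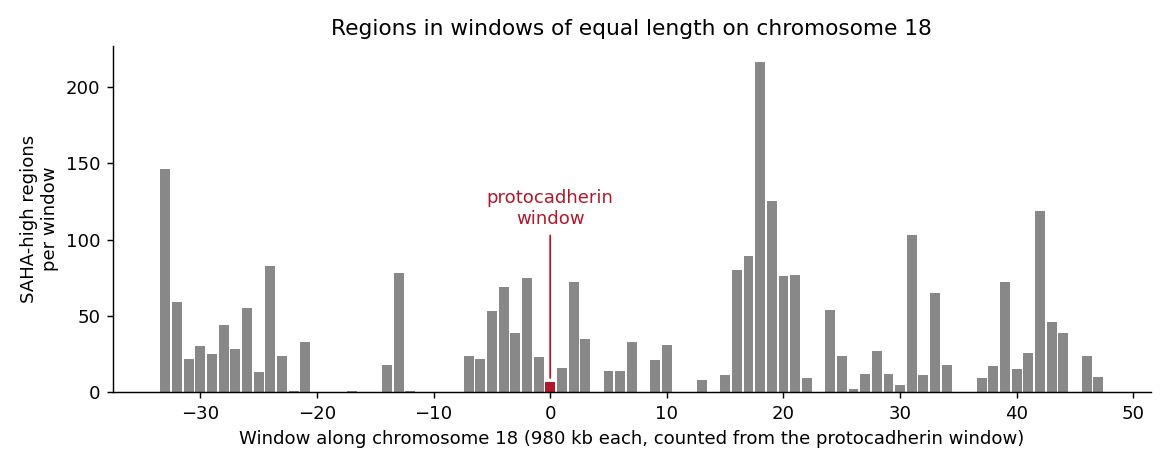
Number of SAHA-high regions (y axis) in each of 81 windows of 980 kb along chromosome 18 (x axis, windows counted from the protocadherin window at 0). The protocadherin window holds 7 regions, its neighbours 23 and 16, and the fullest window 216.

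By median fold the window stood in the middle of the 62 other windows with at least 1 region, of which 38 were lower, 22 higher and 2 equal. By median ratio 59 were lower and 3 higher (median 1.83, range 1.30 to 2.08), but windows were not matched for DMSO level, which moves this ratio by construction. Among regions with a level at or below the average, the members' median of 2.22 given above lay inside the quartiles of the others on the chromosome. Those others were shorter (median 853 against 1299 bp), and shorter regions need a higher ratio to be listed. Their DMSO tags below that level are not known either. Why the window's median ratio was high was not tested. Medians over 7 regions are imprecise, and windows with few regions scatter more. The tight grouping was shared by some other sparse windows. Of the 17 other windows with 5 to 20 regions, 2 had their regions within a smaller part of the window than 7.00%, and the median was 25.4% (range 4.31 to 95.4%). A stretch longer than the 652.0 kb at the end of the protocadherin window was empty in 7 of these 17. The 17 were not matched for number of regions, and more regions can span more of a window. In the windows nearest in number, with 5, 8, 9 and 9 regions, the part was 5.14%, 35.6%, 4.31% and 17.8%.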

How the data were processed

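The 2 libraries, 1 of SAHA and 1 of DMSO, were deposited as 1 region list. The build was mm9, and the tools named are MACS 1.4.0rc2, SAMtools, BWA 0.5.9 and CASAVA 1.7.0, per the submitters' processing notes. Per the file headers, regions were called from 123676661 SAHA tags and 76214516 DMSO tags left after a limit of 3 duplicates per position (97.4% and 65.6% of all tags), with DMSO scaled up by 1.62 and a p cutoff of 1e-05. The tag column, as deposited, is a count of SAHA tags. The score column, as deposited, is 10 times the −log10 p, the fold column is a ratio from the authors' caller, and the FDR column, as deposited, is a percent. The input names in the header hold "q20". Whether tags shared by similar protocadherin genes were lost was not tested.

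Members were found by overlap of at least 1 base. The DMSO level was recovered as the Poisson mean that gives the listed score from the listed tags. It was matched to the caller's backgrounds (genome average, own length, 1 kb, 10 kb) within score rounding of 0.005. The calculation was checked on data simulated from the same Poisson model and backgrounds. Such a check cannot show whether that model holds for the list. Of 61106 regions with a score under 3000, 75.8% matched. For the unmatched members, tag numbers from 1 fewer to 15 more than listed were tried. Intervals are exact Poisson or exact binomial at 95%. The planned naming rule covers all 7 members. The gene lists planned for an mm9 annotation were not used. Members and measures were chosen with earlier results of these data known. Python 3.11.15, numpy 2.4.6, scipy 1.17.1, pandas 2.3.3 and matplotlib 3.10.9 were used.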

Additional observations from a re-analysis of the deposited data

How the results depend on the processing

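Of 20 alternatives, 16 left the value for the protocadherin window within its interval or within 1.5 times, among them every one with a score of at least 100 and the windows shifted by 490 kb. Several of the 16 could hardly move, so their number does not measure how stable the values are. All members lie well inside the window, so placing them by midpoint had to leave 7. The score limit kept 6 of the 7 members. A rank of 58 among 81 windows could not rise by 1.5 times. The median DMSO level sat at the genome average, the lowest background the caller uses. Merging members no more than 1 kb apart left 3 regions with a median length of 3870 bp, by construction. Against windows of the other autosomes, an alternative chosen after the data were seen, the window ranked 1424 of 2336 by number of regions and 1477 by coverage, in place of 58 and 59 of 81, since more windows were ranked. There 60.9% of windows held more regions, against 71.2% on chromosome 18. No paired analysis was possible because each condition has 1 library. Mapping and duplicate loss along the arrays cannot be read from the list.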
